A study of Mus musculus with 9 samples.

Results

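The transcripts described here come from 7 genes that respond early to T cell receptor signals: the nuclear receptors Nr4a1, Nr4a2 and Nr4a3, the zinc finger factors Egr1, Egr2 and Egr3, and the surface lectin Cd69. They were taken by gene symbol from a table of 34092 genes, and all 7 were found. In the GENCODE M21 annotation of build GRCm38 they lie on chromosomes 15, 2, 4, 18, 10, 14 and 6 in the order given, and no other annotated gene overlaps them. RNA was measured in regulatory T cells in the resting state, a T cell lineage that suppresses immune responses and is defined by the factor Foxp3, sorted directly from mice. The CNS2KO samples carry Foxp3deltaCNS2-gfp, a Foxp3 reporter allele that lacks CNS2, an intronic enhancer of Foxp3. The WT samples carry Foxp3gfp, so both groups carry a gfp reporter at Foxp3. The labels used give no age, tissue or pooling, and list 3 CNS2KO and 6 WT samples. Both columns numbered 407, a number given to a sample of each genotype, hold identical values and were left out. The comparison was therefore made on 2 CNS2KO libraries (399 and 408) and 5 WT libraries (398, 402, 405, 1032 and 1037).

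When a T cell receptor binds its ligand, calcium and calcineurin release Mef2 and NFAT factors that switch on Nr4a genes. Ras proteins and the ERK kinases activate serum response factor partners that switch on Egr genes. Nr4a1 and Egr2 transcripts appear within the first hours and fade when signalling stops, so they are widely used as readouts of recent receptor signals. Regulatory T cells see self ligands and carry more of these transcripts than conventional T cells in mice. Nr4a receptors are known to take part in switching on Foxp3 in the thymus, Egr2 and Egr3 in restraining T cell activation, and Cd69 in holding cells in tissue by pulling the egress receptor S1pr1 off the surface.

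Reads assigned to genes ranged from 16557424 to 21836578 per library, and a floor of 3 reads corresponds to 0.137 to 0.181 CPM, for counting error only. CPM are read counts scaled to the gene reads of a library with edgeR's trimmed mean of M values (TMM). Transcripts of regulatory T cells were present in every library, with summed CPM of 8 markers of 6294 and 6463 in CNS2KO and 6017 to 6720 in WT. Markers of B cells, which also express Egr1, Nr4a1 and Cd69 when activated, had 6 of 8 members read in every library and summed to 1101 and 1361 CPM in CNS2KO and 1189 to 1507 CPM in WT. Of 9 myeloid markers 4 were read in every library, with sums of 85.2 and 99.7 CPM in CNS2KO and 65.3 to 92.3 CPM in WT. Of 7 CD8 T and NK cell markers 3 were, with sums of 49.5 and 54.2 CPM in CNS2KO and 44.8 to 59.1 CPM in WT, and the NK receptor Ncr1 was at 0 in all. Of 7 red cell markers 3 were, with sums of 156 CPM in CNS2KO 399 and 31.4 CPM in CNS2KO 408, against 6.84 to 27.6 CPM in WT. The part of these other cells in the results was not tested.

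Upstream sequences are shown for Nr4a1 and Egr2, whose levels moved together across libraries, and for Nr4a2, the member with the widest spread. RefSeq windows on build GRCm38.p6 matched 4 of the 7 members. Each line holds the 250 bases before a RefSeq start, 5′ to 3′ on the gene's strand, and no annotated GENCODE M21 exon overlaps them. The Nr4a1 stretch is chr15:101266596-101266845 on the plus strand and that of Egr2 is chr10:67537619-67537868 on the plus strand, and both lie inside the span of longer forms of their genes. Egr2 has 5 RefSeq windows, partly overlapping, of which 3 hold the half-site, 4 a CArG box and 1 an NFAT core. The Nr4a2 stretch is chr2:57124004-57124253 on the minus strand and lies directly before that gene. Capitals mark TGACG or its reverse CGTCA, the half-site of the cyclic AMP response element bound by Creb factors, and in Egr2 also the CArG box bound by serum response factor.

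Nr4a1: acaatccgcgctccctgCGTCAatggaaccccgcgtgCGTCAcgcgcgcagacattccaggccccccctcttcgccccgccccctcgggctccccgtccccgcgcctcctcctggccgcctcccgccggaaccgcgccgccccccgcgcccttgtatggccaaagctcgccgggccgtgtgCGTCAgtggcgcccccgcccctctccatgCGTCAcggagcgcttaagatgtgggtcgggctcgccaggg
Egr2: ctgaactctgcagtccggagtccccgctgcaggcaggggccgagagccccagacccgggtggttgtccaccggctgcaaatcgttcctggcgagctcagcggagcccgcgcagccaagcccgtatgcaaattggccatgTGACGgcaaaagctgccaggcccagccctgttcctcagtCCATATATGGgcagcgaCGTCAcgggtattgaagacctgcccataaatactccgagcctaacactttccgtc
Nr4a2: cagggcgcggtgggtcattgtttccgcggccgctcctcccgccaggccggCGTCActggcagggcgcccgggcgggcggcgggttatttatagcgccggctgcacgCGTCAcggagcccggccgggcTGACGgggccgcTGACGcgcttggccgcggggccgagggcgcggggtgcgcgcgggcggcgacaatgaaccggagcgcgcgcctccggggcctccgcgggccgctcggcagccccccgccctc

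The half-site occurs 4 times before Nr4a1 and 4 times before Nr4a2, and 2 times before Egr2, where the CArG box lies 72 bases before the start. The 5 letters TGACG are found on either strand in 17.8% of the 32851 windows used over the same 250 bases, and a CArG box in 1.47%. The Egr site GCGNGGGCG was found once each before Nr4a1 and Nr4a2 and is in 4.7% of windows. The full element TGACGTCA, which contains the half-site, the Nr4a response element AAAGGTCA, the AP-1 site TGANTCA and the NFAT core GGAAAA were searched on both strands and are not in these 3 stretches, while they are in 1.55%, 1.34%, 6.75% and 20.4% of windows. A Mef2 site was found 1 time, before Nr4a2, 167 bases from the start, and is in 2.92% of windows. These matches describe letters in the windows, and binding was not measured.

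The members covered a wide range of levels in resting cells. Levels of different genes were compared per length, as CPM per kilobase of exon (RPKM) with exon lengths from GENCODE M21, which may differ from the annotation the authors counted on. Cd69 averaged 220.2 ± 9.50 RPKM in CNS2KO (SD, n = 2) and 187 ± 23.3 RPKM in WT (SD, n = 5), above 97.3% of the 12901 tested genes with a length. Nr4a1 followed at 33.8 ± 6.39 RPKM in CNS2KO and 31.6 ± 8.29 RPKM in WT, above 82.7% of genes. Cd69 and Nr4a1 did not overlap with each other or with the next gene in any library.

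Egr2 averaged 11.4 ± 3.12 RPKM in CNS2KO and 9.81 ± 3.42 RPKM in WT, and Egr1 4.37 ± 0.285 RPKM in CNS2KO and 5.74 ± 1.73 RPKM in WT. Egr2 was above Egr1 in each of the 7 libraries, although their ranges overlap. Nr4a3 averaged 1.25 ± 0.0342 RPKM in CNS2KO and 1.07 ± 0.771 RPKM in WT, and Nr4a2 0.654 ± 0.0393 RPKM in CNS2KO and 0.870 ± 0.788 RPKM in WT. Nr4a3 was above Nr4a2 in 5 of 7 libraries, so their order does not stand out from the spread. Egr3 came last, at 0.0359 RPKM over the 7 libraries. Thus Nr4a1 was the main Nr4a transcript and Egr2 the main Egr transcript by level per length in each of the 7 libraries.

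**Figure D1:**
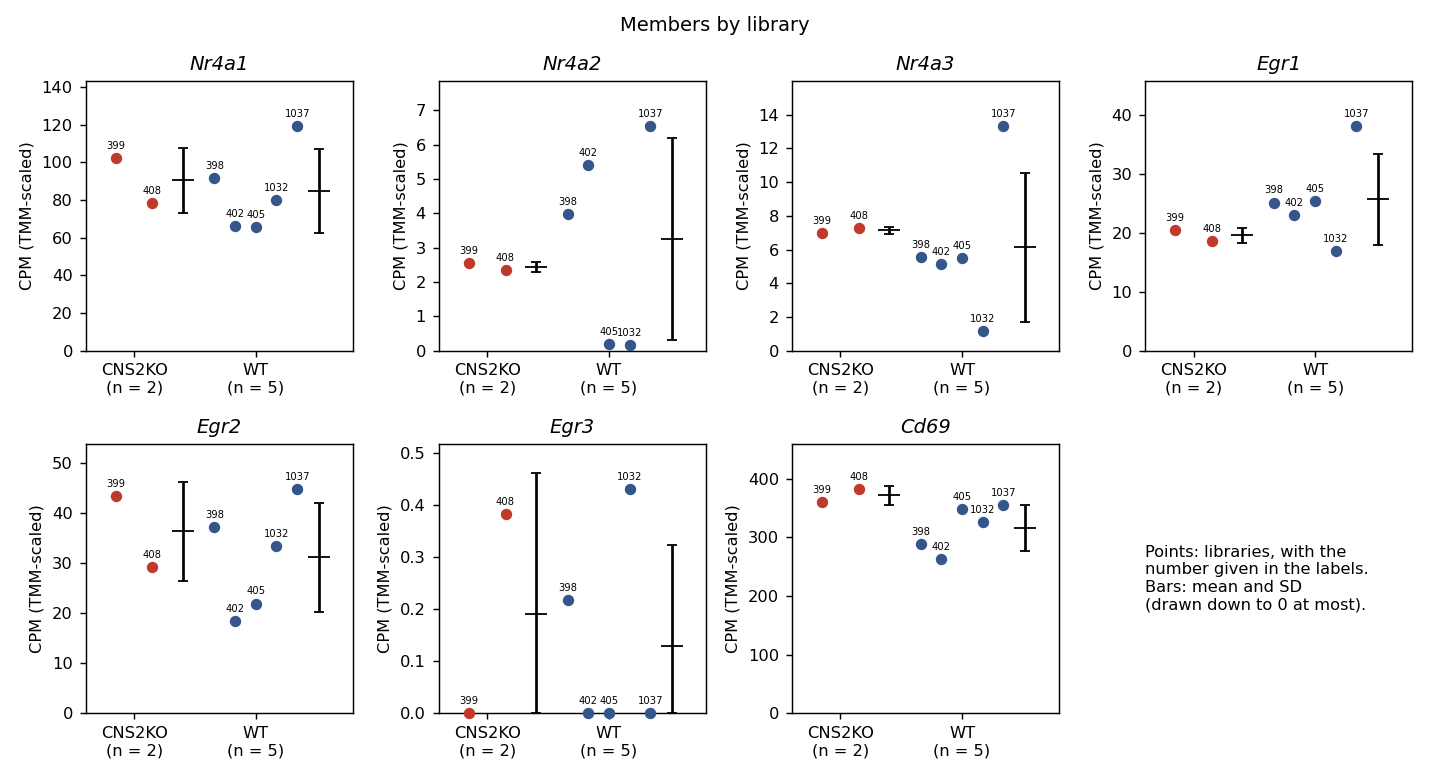
CPM (TMM-scaled, linear axes from 0) of each member in each library, with the number given in the labels, for CNS2KO (left, n = 2) and WT (right, n = 5); bars are the mean and SD. WT 1037 is the highest library for Nr4a1, Nr4a2, Nr4a3, Egr1 and Egr2, and Cd69 is the panel in which the groups do not overlap.

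The study compared resting regulatory T cells with and without CNS2, and none of these genes differed past the test. Of the 6 members that passed the filter on low counts, 0 passed edgeR's quasi-likelihood test at a false discovery rate of 0.05, as for 0% of all 14424 genes tested (0 genes). At an unadjusted p under 0.05 there were 0 of 6 members and 361 genes, 2.5% of those tested. At the same rate DESeq2 called 0 genes (496 at an unadjusted p under 0.05), limma-voom 0 (614), and limma run on the log2 values of the authors 0 (563). Fold changes of CNS2KO over WT were positive in 4 members and negative in 2, with a median log2 fold change of 0.15, against -0.03 over all genes tested. Of all genes tested, 47.4% had a positive fold change, the share to set beside the sign counts of the lists below. The WT range held both CNS2KO values for 5 of the 6 members, which is so for 49% of genes tested. In bulk RNA, fewer cells with a transcript and less of it per cell cannot be told apart. Nothing in the labels ties the libraries to separate mice, and the p-values therefore reflect only how far these samples scatter, which may be technical.

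Nr4a1, also called Nur77, is the receptor most often used to report T cell receptor signals. It stood at 103 CPM in CNS2KO 399 and 78.3 CPM in CNS2KO 408, against 91.9, 66.1, 65.9, 80.3 and 119 CPM in WT 398, 402, 405, 1032 and 1037. The CNS2KO libraries fall on either side of the middle of the WT range. The log2 fold change was 0.09 (SE 0.26, 95% confidence interval -0.47 to 0.65, edgeR adjusted p = 1.0). The two-sided exact permutation test over libraries gave p = 0.714. Here and below that test takes the difference of mean log2 CPM between groups, not the edgeR fold change. Without CNS2KO 399 the log2 fold change was -0.11.

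Nr4a2, also called Nurr1, was read sparsely and unevenly. It stood at 2.55 CPM in CNS2KO 399 and 2.34 CPM in CNS2KO 408, against 3.98, 5.40, 0.203, 0.162 and 6.54 CPM in WT 398, 402, 405, 1032 and 1037. WT 405 had 4 reads and WT 1032 had 3 reads, at or near the floor, while the other WT libraries had 73 to 112 reads. The WT libraries thus fall apart into high and low ones, 40.4-fold between the extremes, and both CNS2KO libraries lie in between. The log2 fold change of -0.41 has a 95% interval of -3.13 to 2.31 (SE 1.24). The exact permutation p was 0.952, for a difference of mean log2 CPM that was positive. The sign of the fold change differed between tests: limma-voom gave 0.87, limma run on the authors' log2 values gave 0.81, and edgeR without WT 1037 gave 0.0089.

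Nr4a3, also called Nor1, stood at 6.99 CPM in CNS2KO 399 and 7.27 CPM in CNS2KO 408, against 5.56, 5.16, 5.49, 1.19 and 13.3 CPM in WT 398, 402, 405, 1032 and 1037. In 3 of the WT libraries the level was close to that in CNS2KO, WT 1032 was low and WT 1037 high, an 11.2-fold range. The log2 fold change was 0.22 (SE 0.70, 95% confidence interval -1.32 to 1.75, exact permutation p = 0.571), and it was -0.05 without WT 1032. The retinoid X receptors and reported Nr4a responses in regulatory T cells had 7 positive and 11 negative fold changes among 18 tested (median -0.04), with 0 called. Among them, the IL-2 receptor chain Il2ra averaged 1789 ± 58.6 CPM in CNS2KO and 1830.1 ± 237 CPM in WT, and the Helios gene Ikzf2 955 ± 259.7 CPM in CNS2KO and 955 ± 46.7 CPM in WT. Foxp3 itself averaged 452 ± 15.9 CPM in CNS2KO and 488 ± 78.9 CPM in WT (log2 fold change -0.11, SE 0.18). The deleted element is not in the mature transcript, and Foxp3 levels therefore give no check of genotype.

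Egr1, an immediate early target of ERK signals, stood at 20.5 CPM in CNS2KO 399 and 18.7 CPM in CNS2KO 408, against 25.2, 23.1, 25.4, 16.9 and 38.2 CPM in WT 398, 402, 405, 1032 and 1037. Both CNS2KO libraries were below 4 of the 5 WT libraries and above WT 1032. The log2 fold change was -0.39 (SE 0.32, 95% confidence interval -1.10 to 0.31, edgeR unadjusted p = 0.248 and adjusted p = 1.0), with an exact permutation p of 0.333. It stayed negative under the alternatives run, from -0.51 to -0.21.

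Egr2, known for restraining T cell activation and autoimmunity in mice, stood at 43.4 CPM in CNS2KO 399 and 29.4 CPM in CNS2KO 408, against 37.2, 18.6, 22.0, 33.6 and 44.9 CPM in WT 398, 402, 405, 1032 and 1037. The groups overlap, and the libraries order as they do for Nr4a1 with 1 exchange of neighbours, WT 402 and WT 405. The log2 fold change was 0.22 (SE 0.35, 95% confidence interval -0.54 to 0.98, exact permutation p = 0.619), and it was -0.09 without CNS2KO 399. Egr3, the close relative of Egr2, had 0 reads in CNS2KO 399 and 8 in CNS2KO 408, against 4, 0, 0, 8 and 0 reads in WT 398, 402, 405, 1032 and 1037. It did not pass the filter on low counts and no fold change is given, and Egr4, the other family member, had 0 reads in all 7 libraries. A difference in Egr3 was not detectable at this depth.

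Among genes around the Egr factors 0 were called as well. The corepressor Nab1, which binds Egr proteins, averaged 44.5 ± 3.34 CPM in CNS2KO and 39.6 ± 6.33 CPM in WT. Its relative Nab2, itself an Egr response, stood at 2.36 CPM in CNS2KO 399 and 5.36 CPM in CNS2KO 408, against 7.63, 10.4, 8.60, 9.22 and 3.56 CPM in WT 398, 402, 405, 1032 and 1037. Both CNS2KO libraries were below 4 of the 5 WT libraries, and WT 1037 lay between them, for a log2 fold change of -1.03 (SE 0.58, 95% confidence interval -2.30 to 0.24). The list of Egr relatives, partners and reported Egr2 and Egr3 responses had 7 positive and 11 negative members of 18 tested (median -0.05), with 0 called. Its most abundant members were the diacylglycerol kinase Dgka, at 970 ± 51.2 CPM in CNS2KO and 982 ± 95.9 CPM in WT, and the adaptor Sh2d2a, at 213 ± 2.13 CPM in CNS2KO and 225 ± 31.8 CPM in WT. Upstream, the Ras, ERK and serum response factor list had 9 positive and 12 negative of 21 tested (median -0.05), with the GTPase Nras at a log2 fold change of -0.04 and the Ras activator Rasgrp1 at -0.45 (SE 0.33). The calcium, calcineurin and Mef2 list had 6 positive and 15 negative of 21 tested (median -0.13), with the calcium-dependent kinase Camk4 at -0.36 (SE 0.18) and Nfatc1 at 0.10. In both lists 0 genes were called.

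Cd69 was the member whose groups did not overlap. It stood at 360.2 CPM in CNS2KO 399 and 383 CPM in CNS2KO 408, against 288, 263, 348, 327 and 354 CPM in WT 398, 402, 405, 1032 and 1037. The CNS2KO libraries were higher than all 5 WT libraries, CNS2KO 399 by a small margin over WT 1037, and 3.76% of genes tested show this order. The log2 fold change was 0.23 (SE 0.17, 95% confidence interval -0.13 to 0.60, edgeR unadjusted p = 0.185 and adjusted p = 1.0), and the exact permutation test gave p = 0.0952, where the smallest possible over 21 assignments is 0.0476. The sign was positive under the alternatives run, from 0.17 to 0.31.

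The egress genes that Cd69 works with were also read. S1pr1, the receptor that Cd69 pulls off the surface, is named with its values already known. Its level was 574 CPM in CNS2KO 399 and 652 CPM in CNS2KO 408, against 682, 736, 865, 807 and 782 CPM in WT 398, 402, 405, 1032 and 1037. Every WT library was above both, an order found for 3% of genes tested, and the log2 fold change was -0.34 (edgeR unadjusted p = 0.0455, not past the adjusted threshold). The list of egress and residence genes had 5 positive and 10 negative of 15 tested (median -0.05), with 0 called. Among its most abundant members was Rgs1, an inhibitor of chemokine receptor signals, at 868 ± 56.2 CPM in CNS2KO and 768 ± 91.3 CPM in WT.

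**Figure D2:**
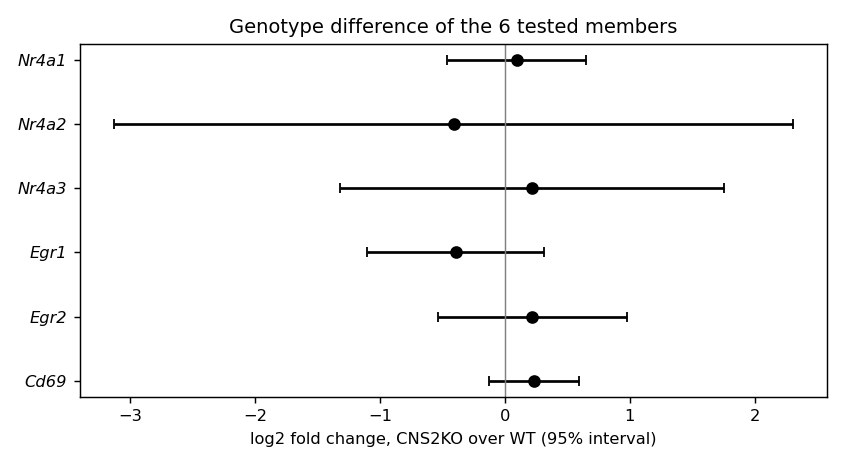
Log2 fold change of CNS2KO over WT for the 6 tested members, as points with 95% intervals derived from the F statistics of edgeR's quasi-likelihood test. Every interval crosses 0, and they are narrowest for Cd69 (-0.13 to 0.60) and widest for Nr4a2 (-3.13 to 2.31).

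Variation between WT libraries was uneven among the members. On the log2 scale the WT SD was 2.32 for Nr4a2, larger than for 92.9% of the 2521 tested genes with a mean CPM from 0.5 to 2 times its own. For Nr4a3 it was 1.21, larger than for 88.6% of genes of like level, for Egr2 0.53 (85.8%) and for Nr4a1 0.36 (76.9%). Egr1, at 0.42, was near the middle of its peers (59.8%), and Cd69, at 0.18, was below the middle (42.7%). Nr4a2 and Nr4a3, the tested members of lowest level, thus spread most, also against genes of like level.

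WT 1037 stood high among the WT libraries for these genes. It was the highest of the 7 libraries for 5 of the 6 tested members, Nr4a1, Nr4a2, Nr4a3, Egr1 and Egr2, and the highest of the WT libraries for all 6 of them. Across all genes tested it was the highest of the 7 libraries for 13.9% and the highest of the WT libraries for 21.3%. Averaged over the standardised log2 CPM of the 6 members, WT 1037 stood at 1.21 SD units, followed by CNS2KO 399 at 0.45, WT 398 at 0.14 and CNS2KO 408 at 0.06. WT 405, WT 402 and WT 1032 were lowest, at -0.46, -0.60 and -0.79. WT 1032 and WT 1037 are also the libraries numbered with 4 digits. Their column headers begin with R, and those of all other libraries used, of both genotypes, with YI. The labels do not say whether either marks a batch. Against the 3 other WT libraries alone the log2 fold changes were 0.28 for Nr4a1, -0.38 for Nr4a2, 0.40 for Nr4a3, -0.32 for Egr1, 0.49 for Egr2 and 0.31 for Cd69, with 0 members called.

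**Figure D3:**
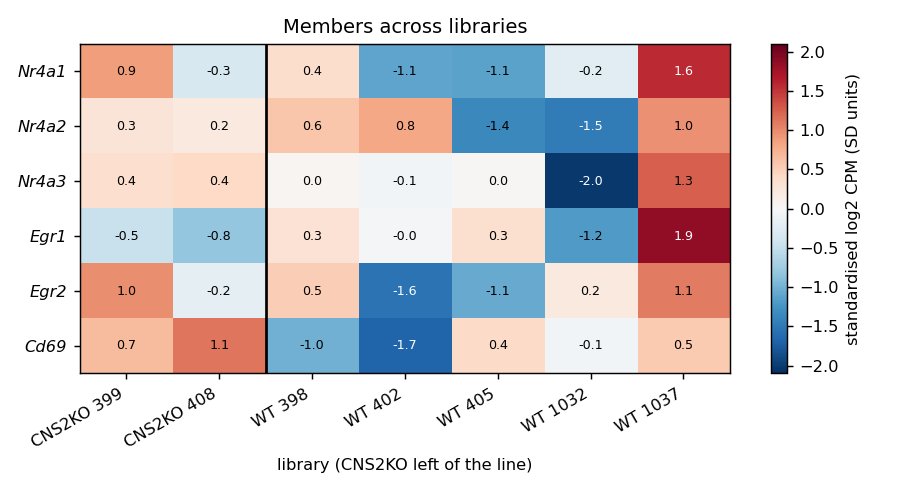
Log2 CPM of the 6 tested members, standardised over the 7 libraries (SD units, red high and blue low), with CNS2KO libraries left of the line. WT 1037 is red for all 6 members, and the low value of WT 1032 for Nr4a3 is -2.03.

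Other lists were set beside that order. The mean log2 level of 37 tested early response genes of the T cell receptor, set against the WT mean, was highest in WT 1037 (0.23), and stood at -0.02 in CNS2KO 399 and -0.04 in CNS2KO 408. In WT 1037 the same mean was -0.17 for the Ras, ERK and serum response factor list and -0.13 for the calcium, calcineurin and Mef2 list. There it was -0.02 for the Egr partners and responses, 0.15 for the Nr4a partners and responses and 0.09 for the egress and residence genes. The mean of 11 heat shock and stress genes was 0.73 in CNS2KO 399 and -0.15 in CNS2KO 408, against 0.83 in WT 1037 and -0.63 to 0.36 in the other WT libraries. The high mean of WT 1037 is carried by Hspa1a (14.7 CPM) and Hspa1b (5.67 CPM), which were near 0 in most libraries. By summed CPM the stress genes were highest in CNS2KO 399 (11846), with 7626 in WT 1037. Of the 11, 5 had an edgeR unadjusted p under 0.05 with a positive fold change, against 2.5% of all genes in either direction. Of these, Hspa8, Hspd1 and Dnaja1 were above the WT range in CNS2KO 399 but inside it in CNS2KO 408. Hsp90aa1 and Hspa5 were above it in both. B cell markers summed to 1507 CPM in WT 1037, of which Ighm gave 1308 CPM, while their mean log2 level there was -0.13, and 0.26 in WT 1032. Their part in the levels of the members was not tested. Between genotypes the early response list had 12 positive and 25 negative of 37 tested (median -0.10), with 0 called. Its most abundant genes were Il2ra, given above, and the antiproliferative factor Btg1, at 584 ± 153 CPM in CNS2KO and 617 ± 53.5 CPM in WT.

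Nr4a1 and Egr2 moved together across libraries. Over the 7 libraries Pearson's r of their log2 CPM was 0.94 (exact permutation p = 0.0016, adjusted p = 0.033 over the 21 pairs of members) and Spearman's rho was 0.96 (exact permutation p = 0.0028, adjusted p = 0.058). Without the 2 libraries farthest from the Nr4a1 median, WT 1037 and CNS2KO 399, r was 0.95, and with each library left out in turn it ranged from 0.93 to 0.96 (adjusted p over 21 pairs from 0.058 to 0.175 with 6 libraries, by exact permutation). With each genotype centred on its own mean, r was 0.94 and the adjusted permutation p 0.058, which is approximate because centred values are not freely exchangeable. Among 8355 genes with a mean of at least 10 CPM, Egr2 ranked 9 by likeness to Nr4a1, and Nr4a1 ranked 6 by likeness to Egr2. Of 7421 of these genes that are neither members nor predicted or clone names, 18 (0.243%) had r of at least 0.9 with Nr4a1 and 11 (0.148%) with Egr2.

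No other pair passed. The 10 pairs among Nr4a1, Nr4a2, Nr4a3, Egr1 and Egr2 all had positive r, from 0.22 to 0.94 with a median of 0.47. Without the 2 libraries farthest from the median, 5 of these 10 pairs had a negative r, the lowest being -0.88 for Nr4a3 and Egr1 (0.71 over the 7 libraries). The 5 pairs of Cd69 with them ranged from -0.25 to 0.45. Nr4a2 and Nr4a3 had r = 0.71 (exact permutation p = 0.038, adjusted p = 0.40) and rho = 0.50 (exact permutation p = 0.27, adjusted p = 0.70). Without WT 1032 and WT 405, where Nr4a2 was lowest, their r was 0.32. Without WT 1032 alone r was 0.40 and without WT 405 alone 0.90, so the relation rests on WT 1032. Nr4a1 and Egr1, both common readouts of receptor signals, had r = 0.47 (exact permutation p = 0.298, adjusted p = 0.689), and r was -0.20 without WT 1037 and CNS2KO 399. Of the 21 pairs 2 had an unadjusted p under 0.05 by Pearson's r and 1 by Spearman's rho.

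By the highest Pearson's r over the 7 libraries among 7421 named genes of at least 10 CPM, the genes most like each member were listed as a description. Nr4a1 was closest to Dusp1, a phosphatase of MAP kinases and itself an early response gene (r = 0.99, rho = 0.96), then Moap1 (0.96) and Ccdc109a, the older symbol of the mitochondrial calcium channel gene Mcu (0.96). Dusp1 stood at 38.9 CPM in CNS2KO 399 and 25.8 CPM in CNS2KO 408, against 32.2, 20.5, 17.2, 25.5 and 49.4 CPM in WT 398, 402, 405, 1032 and 1037, nearly the order of Nr4a1. Egr2 was closest to Ccdc109a (0.97) and Eif2b4 (0.95). Egr1 was closest to Pstpip1 (0.96), Ccs (0.96) and Snx17 (0.95), and Nr4a2 to Foxk2 (0.96), Khsrp (0.95) and Zfhx2 (0.95).

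Nr4a3 was closest to Tssc1 (0.99), Gpatch4 (0.98) and Ccdc72 (0.98), with rho of 0.93, 0.82 and 0.64, and for this member 59 genes had r of at least 0.9, against 11 to 19 for the other 5. Cd69 was closest to Oxsm (0.996), Commd1 (0.98) and Smc2 (0.95). The mean profile of the 6 members was closest to Zfp637 (0.96), Fxyd5 (0.96) and Stxbp2 (0.95). The lists of nearest genes of Nr4a1 and Egr2 share Ccdc109a, and the others share none.

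Fos, a subunit of the early response factor AP-1, was chosen with its values in view because it did not follow Nr4a1. Its level was 105 CPM in CNS2KO 399 and 91.5 CPM in CNS2KO 408, against 92.7, 256, 50.5, 90.8 and 210.4 CPM in WT 398, 402, 405, 1032 and 1037. WT 402 had the highest Fos and the lowest Egr2, and nearly the lowest Nr4a1, while WT 1037 was high for each of these 3 genes.

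**Figure D4:**
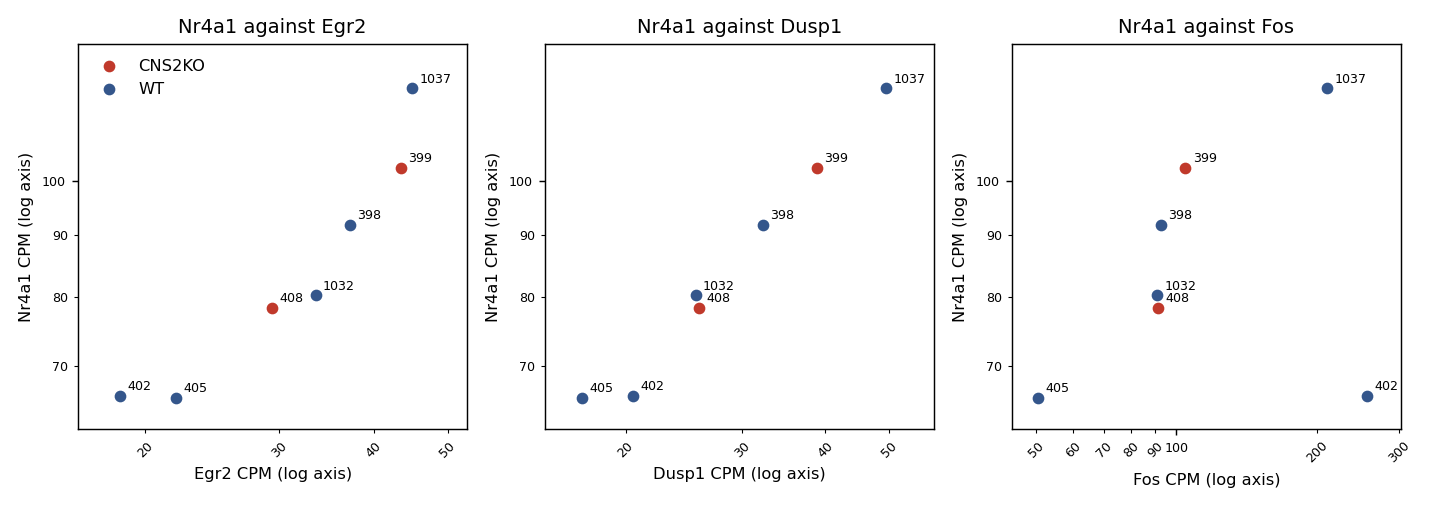
Nr4a1 CPM against Egr2, Dusp1 and Fos CPM (log axes) in the 2 CNS2KO and 5 WT libraries, with the numbers given in the labels. The points rise together for Egr2 (r = 0.94) and Dusp1 (r = 0.99), and WT 402 stands apart for Fos at 256 CPM.

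The authors' deposited table of signed values, which names no groups, direction or log base, gives -0.089 for Nr4a1, -0.264 for Nr4a2, 0.415 for Nr4a3, -0.383 for Egr1, -0.531 for Egr2, -3.222 for Egr3 and -0.093 for Cd69. In the authors' deposited table Egr4 has the value -1.828, although it had 0 reads in all 7 libraries used here. Because its groups are not named, the table was not set against the fold changes above.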

How the data were processed

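Trizol RNA of the sorted cells went through SMARTer amplification and a Proton library preparation, per the labels' protocols. STAR, BWA, edgeR and the mm9 build are listed in the submitters' processing notes, without roles or versions, and in the sources used here neither the counter nor the annotation is named. Raw read counts, deposited by the authors, are given for each gene symbol, beside the authors' log2 values, whose scaling is not stated, and the authors' table of 1 signed score per gene. Gene rows took 22.0 to 23.7% of the reads of a library. The 5 summary rows of the counter were left out, and so were 4 columns numbered 407, 2 in each of 2 tables, whose genotype cannot be told. Any 2 libraries differed by more than sampling noise (chi-square per degree of freedom of at least 31.6).

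The tests ran in R 4.3.3, where edgeR 4.0.16 filtered genes (filterByExpr), scaled libraries (TMM) and fitted its quasi-likelihood model, two-sided, with p adjusted by Benjamini-Hochberg across all genes. Log2 CPM used a prior count of 2. Correlations used exact permutations of libraries, or all permutations of the centred values, for which p is approximate. GENCODE M21 exon lengths on GRCm38, a later build than mm9, matched 89.4% of tested genes by symbol, and GRCm38.p6 promoter windows came from RefSeq. Alternatives were other scalings and filters, DESeq2 1.42.0, limma-voom and limma 3.58.1 on the authors' log2 values, a looser threshold, WT numbers of 3 digits only, and each library left out. The genes, lists and tests were chosen with earlier results of these data known. Named genes were the members, Foxp3, Egr4, Nab1 and Nab2, the 2 most abundant genes of each list, and the 3 genes most like each tested member and like their mean; Egr3 did not pass the filter and was left out of the likeness search, and 2 genes named by this rule are left unreported. Leaving out libraries for Nr4a1 and Egr2, and the half-site motif, were chosen after seeing the data.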

Additional observations from a re-analysis of the deposited data

How the results depend on the processing

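The count of genes called was 0 under 15 of 16 alternatives and 8 with no filter on low counts, of which 0 were members. No member passed the test under any alternative. Cd69 and Egr1 kept their sign under each of them. Without CNS2KO 399, where the lone CNS2KO library is assumed to vary like WT, the signs of Nr4a1 (-0.11, and 0.27 without CNS2KO 408), Egr2 (-0.085, and 0.47 without CNS2KO 408) and the median of the members turned. With 1 library left out the median ranged from -0.10 to 0.26. Nr4a3 turned to -0.050 without WT 1032 (0.71 without WT 1037), and Nr4a2 (-0.72 without WT 1032) turned to 0.0089 without WT 1037, 0.87 by limma-voom and 0.81 by limma on the authors' log2 values. The cause was not tested. Genes at an unadjusted p under 0.05 numbered 361, and 1676 of 15797 tested without CNS2KO 408. The Pearson's r of Nr4a1 and Egr2 was 0.944 with each genotype centred (adjusted p = 0.058 by permutation, so that 0 pairs passed). That p is approximate, because centred values are not freely exchangeable. With 1 library left out r was 0.927 to 0.964, past the threshold in none of these after adjustment. The median r of the 21 pairs, which include those of Egr3 although it did not pass the filter, was 0.24, and 0.24 to 0.30 under the alternatives. The half-site is in 20.8% of whole windows, against 17.8% before the start. No paired analysis was possible because the genotypes share 1 number, 407, whose columns cannot be assigned. Depth limits Egr3, with 0 to 8 reads. Nr4a2, with 3 to 112 reads, spread widely between libraries of like depth. Genes with a read did differ, from 14639 in CNS2KO 399 to 19206 in CNS2KO 408. They numbered 15671 in WT 405 and 14861 in WT 1032, both low for Nr4a2. In the WT libraries high for Nr4a2 they numbered 18255 (WT 398), 14810 (WT 402) and 16440 (WT 1037). The part of this difference in the spread was not tested.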
